A study of Homo sapiens with 12 samples.

Results

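Translation factor mRNAs encode the proteins that start, elongate and assist protein synthesis. The set taken here has 8 genes: the elongation factors EEF1A1, EEF2, EEF1G and EEF1B2, the initiation factor EIF1, the poly(A)-binding protein PABPC1, the small growth-related protein TPT1 and the nucleolar chaperone NPM1. They were found by position alone. Every poly(A) site listed on the gene's strand within 1000 nt of a given 3′ end (hg19) was taken, the site with the most reads was called the highest site, and genes with fewer than 50 reads at the highest site in any library of a table were dropped. The windows held 55 of the 640413 sites of the pull-down table and 66 of the 189010 sites of the fraction table. For the pull-downs, 5 of the 8 genes were kept (EEF2, EEF1G, TPT1, PABPC1 and EIF1), and for the fractions, 6 (the same with NPM1). Sites carry no gene name in the tables, so each assignment rests on the given 3′ ends, and the place of a site within its gene (UTR, exon or intron) is not given here.

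Counts came from 3'READS+, which sequences the last stretch of polyadenylated RNA and gives one read per captured 3′ end, so that counts need no scaling by transcript length. All cells were HEK293T, a human embryonic kidney line. The pull-down libraries all came from one STAU1-knockout clone (C8), made with a Cas9 nickase, in which STAU1-FLAG or FLAG-GFP was transiently expressed. STAU1 (Staufen1) is a protein that binds double-stranded RNA, and GFP served as an unrelated tagged protein. The groups were STAU1 IP and GFP IP (RNA held by an anti-FLAG antibody) and STAU1 input and GFP input (RNA of the total lysate), with 2 libraries each. The fractions were polysomal and cytoplasmic RNA of the knockout (KO) and of its isogenic control clone (C9, called wild type, WT), with a single library for each. Replicates carry only a number in the labels, with nothing on separate cultures, so the p-values reflect the spread among these libraries and nothing wider. Each group is 1 clone, and a difference between KO and WT cannot be told apart from a difference between these clones.

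Elongation factors deliver aminoacyl-tRNA to the ribosome (EEF1A1, with its exchange complex, which includes EEF1B2 and EEF1G) and move the ribosome along the mRNA (EEF2). EIF1 helps the scanning small subunit to choose the start codon. PABPC1 coats poly(A) tails. Many mRNAs of the translation apparatus, among them EEF1A1, EEF2, EEF1G, EEF1B2, TPT1, PABPC1 and NPM1, are known as TOP mRNAs: they start with a C and a run of pyrimidines, and their entry into polysomes is regulated by growth signals.

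The annotated starts are shown because the members differ in this feature. Most of these genes are known TOP mRNAs, so the number with such a run follows from the choice of genes and is no independent result. RefSeq promoters (GRCh38.p14) matched 7 of the 8 genes. A run of at least 5 bases of C or T that begins with C was searched on the gene's strand, from 10 bases before to 20 bases after each annotated start. Capitals mark the run, the first of the 20 bases being the annotated start:
EEF2, chr19:3985444-3985473, minus strand: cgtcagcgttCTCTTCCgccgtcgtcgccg
EEF1G, chr11:62573872-62573901, minus strand: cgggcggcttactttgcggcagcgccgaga
TPT1, chr13:45341164-45341193, minus strand: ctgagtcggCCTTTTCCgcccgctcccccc
EIF1, chr17:41688875-41688904, plus strand: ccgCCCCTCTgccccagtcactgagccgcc
NPM1, chr5:171387839-171387868, plus strand: agcctgcgtCCTTTCCCTggtgtgattccg

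A run that began within 2 bases of an annotated start was found for 5 of the 7 genes: EEF1A1, EEF2, EEF1B2, TPT1 and NPM1. Of all 34961 promoters, 3547 (10.1%) had such a run, and 13415 (38.4%) had a run anywhere in the 30 bases. In EIF1 the run began 7 bases before the start. EEF1G had none in this window. EEF1B2 and NPM1 have 2 annotated starts each, and the run lay at the start for one of them. Members are counted by gene and the background by promoter, so their shares are not of like units.

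The level of the members was uneven. The EEF2 site (chromosome 19, minus strand, 3976055) had 798833 reads over the 8 pull-down libraries, the most of any site in the table, and ranked 8 in the fraction table with 99000 reads. It held between 88.7% and 92.9% of all reads in the 8 windows in each pull-down library and between 77.4% and 84.3% in each fraction library. The EIF1 site (chromosome 17, plus strand, 39847250) ranked 129 in the pull-down table, the TPT1 site (chromosome 13, minus strand, 45911007) ranked 295, the PABPC1 site (chromosome 8, minus strand, 101715144) ranked 398, and the EEF1G site (chromosome 11, minus strand, 62327068) ranked 1060.

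The dropped genes were far lower. EEF1A1 had 2 to 61 reads per pull-down library at its highest site (chromosome 6, minus strand, 74225475) and 13 to 15 per fraction library. EEF1B2 (chromosome 2, plus strand, 207027651) had 4 to 215 and 27 to 83. NPM1 (chromosome 5, plus strand, 170837903) had 35 to 348 per pull-down library and was kept in the fractions, with 126 to 174. RefSeq lists 50 pseudogenes named after EEF1A1, 50 after NPM1, 14 after TPT1, 13 after PABPC1, 8 after EEF1G, 8 after EEF1B2, 7 after EIF1 and none after EEF2. No source used here says how reads matching several places were counted, so counts of all members but EEF2 are uncertain in that respect. The part of such copies in the low counts of EEF1A1 and NPM1 was not tested.

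Total reads ranged from 1245270 to 9655646 in the pull-down libraries, the 2 GFP IP libraries being the shallowest, and from 2799226 to 3483937 in the fractions. STAU1 input replicate 1 had 99156 sites with reads at a total of 5567893 reads. STAU1 input replicate 2 had 175098 sites at 9655646 reads, and STAU1 IP replicate 2 had 188458 sites at 5727812 reads. The GFP IP libraries had the fewest sites with reads, 74715 and 81173. The tables name no gene, so the loss of STAU1 in the knockout and markers of the cell line were not analysed here. The libraries are bulk RNA, in which fewer cells with a transcript and less of it per cell cannot be told apart.

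The first comparison asked which of these mRNAs the STAU1 pull-down held above or below its own input. The 8 windows together took 1.58% and 1.53% of the reads in STAU1 IP, against 1.91% and 2.00% in STAU1 input. In the other pair they took 2.06% and 2.15% in GFP IP, against 2.06% and 2.14% in GFP input. The STAU1 IP libraries were the lowest of the 8, and the GFP pair overlapped. These are shares of unscaled library totals, and 88.7% to 92.9% of the window reads were at EEF2. With the scaling used for the single members below, EEF2 lay lower in both GFP IP libraries than in both GFP inputs. The shares are thus no measure of the set as a whole.

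TPT1 was the member with the lowest STAU1 IP value against its input. Its highest site had 164.7 and 151.6 CPM (read counts relative to library size, TMM-scaled) in STAU1 IP, against 450.4 and 534.6 CPM in STAU1 input. It had 268.2 and 371.0 CPM in GFP IP, against 510.0 and 603.7 CPM in GFP input. Both pull-downs lay below their inputs without overlap, and both STAU1 IP libraries lay below both GFP IP libraries. The log2 change was -1.64 ± 0.20 (SE) in STAU1 IP over input (adjusted p = 4.913e-05 by edgeR's quasi-likelihood test with Benjamini-Hochberg adjustment over 33744 sites). In GFP IP over input the log2 change was -0.80 ± 0.20 (edgeR adjusted p = 0.01855). The GFP call was lost without GFP IP replicate 1 (log2 -0.66, edgeR adjusted p = 0.3871), without GFP input replicate 2 (-0.71, 0.05944) and with scaling by library totals (-0.49, 0.1439). With only the 4 GFP libraries in the fit it was at the threshold (-0.69, 0.05002).

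EIF1 was also lower in both pull-downs. Its highest site had 408.2 and 414.0 CPM in STAU1 IP, against 882.9 and 934.7 CPM in STAU1 input. It had 507.4 and 508.7 CPM in GFP IP, against 1213 and 1276 CPM in GFP input. The groups did not overlap within either pair, and replicates differed little. The log2 change was -1.14 ± 0.16 in STAU1 IP (edgeR adjusted p = 0.0001835) and -1.29 ± 0.16 in GFP IP (edgeR adjusted p = 5.466e-05). These calls, and that of TPT1 in STAU1 IP, held under all 15 alternatives of scaling, filter, tool and libraries.

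EEF1G had 100.9 and 103.3 CPM in STAU1 IP, against 205.4 and 165.7 CPM in STAU1 input. It had 87.8 and 94.0 CPM in GFP IP, against 135.1 and 169.4 CPM in GFP input. The pull-downs lay below their inputs without overlap, but only the STAU1 difference passed the test, with a log2 change of -0.86 ± 0.21 (edgeR adjusted p = 0.01939). In GFP IP the log2 change was -0.74 ± 0.22 (edgeR adjusted p = 0.05383, and 0.0005126 to 0.3852 over 15 alternatives). The STAU1 call was lost without STAU1 IP replicate 1 (edgeR adjusted p = 0.1532), without STAU1 IP replicate 2 (0.08575) and without STAU1 input replicate 1 (0.133), at log2 changes of -0.86, -0.93 and -0.79.

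EEF2 did not pass the test in either pull-down. It had 14119 and 13345 CPM in STAU1 IP, against 16973 and 19673 CPM in STAU1 input, a log2 change of -0.42 ± 0.13 (edgeR adjusted p = 0.0756). It had 17111 and 18009 CPM in GFP IP, against 19853 and 21741 CPM in GFP input, a log2 change of -0.24 ± 0.13 (edgeR adjusted p = 0.3865). Neither pair overlapped. The STAU1 value was past the threshold under 8 of the 15 alternatives, among them DESeq2 (log2 -0.39, adjusted p = 0.003334) and the fit without STAU1 input replicate 1 (log2 -0.61, edgeR adjusted p = 0.002214). The GFP value was past the threshold under 3 of the 15 alternatives: without the filter (log2 -0.68, edgeR adjusted p = 1.752e-29), without GFP input replicate 1 (-0.46, 0.0407) and without STAU1 input replicate 1 (-0.37, 0.04327). With scaling by library totals it turned to 0.07 (edgeR adjusted p = 0.8211).

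PABPC1 showed no called change. It had 341.3 and 300.3 CPM in STAU1 IP, against 307.1 and 340.5 CPM in STAU1 input. It had 339.4 and 434.4 CPM in GFP IP, against 298.8 and 364.6 CPM in GFP input. All 4 groups overlapped. The log2 change was -0.01 ± 0.19 in STAU1 IP (edgeR adjusted p = 0.9844) and 0.22 ± 0.19 in GFP IP (edgeR adjusted p = 0.6287), and the sign of both turned under other settings.

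**Figure D1:**
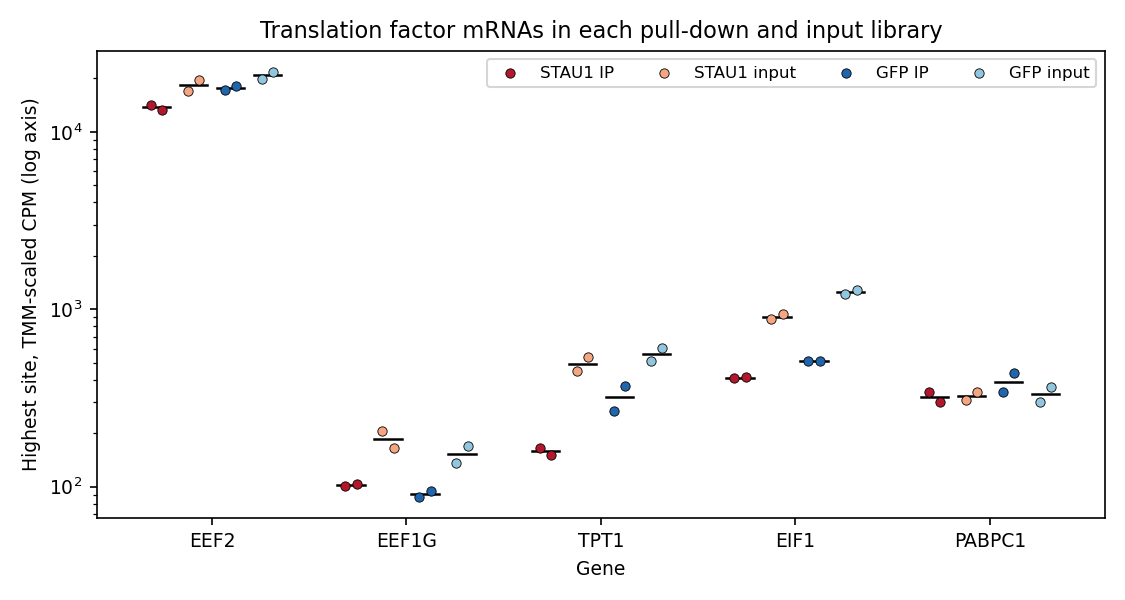
Level of 5 translation factor mRNAs in the 8 pull-down and input libraries: TMM-scaled CPM at the highest site on a log axis, each point 1 library and each short line the mean of a group (n = 2). TPT1, EIF1 and EEF1G lie lower in each pull-down than in its input, while the PABPC1 groups overlap at 298.8 to 434.4 CPM.

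In STAU1 IP over input 3 of the 5 members were called lower (EEF1G, TPT1 and EIF1) and none higher. Over all 33744 sites tested 2.99% were called lower and 3.06% higher, and among the 526 abundant sites (average log2 CPM of at least 8) 30.4%. In GFP IP over input 2 of the 5 were called lower (TPT1 and EIF1) and none higher, with 3.99% of all sites and 37.5% of the abundant sites called lower and 2.11% of all sites called higher. None was called higher by DESeq2 or at an unadjusted p under 0.05 by edgeR. DESeq2 called 1505 of 31781 sites higher in STAU1 IP over input and 1229 of 19351 in GFP IP over input. The share of all sites at the unadjusted p is not given here. The median log2 change of the members was -0.86 in STAU1 IP, against 0.12 over all sites and -0.13 over abundant sites. In GFP IP it was -0.74, against -0.16 over all sites and -0.32 over abundant sites. With 5 members both medians are the values of EEF1G. At an average log2 CPM of 7.06 EEF1G is not itself an abundant site, while the other members are. Among the 526 abundant sites, 6.27% had a lower STAU1 IP change than TPT1 and 14.1% a lower GFP IP change than EIF1.

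The difference between both changes over input (the double ratio, STAU1 IP over input divided by GFP IP over input) asks whether a change goes with STAU1 beyond the unrelated protein. None of the 5 members passed the edgeR test, against 0.157% of all sites called lower and 0.53% called higher. At an unadjusted p under 0.05 there was 1 member, TPT1, and DESeq2 called the same gene. DESeq2 gave an adjusted p to 9538 sites and called 316 of them lower and 425 higher. The share of all sites at an unadjusted p under 0.05 is not given here, so that count has no background. The TPT1 double ratio was -0.84 ± 0.28 on the log2 scale (edgeR unadjusted p = 0.00755, adjusted p = 0.2191), and under the alternatives it ranged from -1.02 to -0.49. With DESeq2 it was -0.96 (adjusted p = 0.002895). The double ratios of the others were -0.24 ± 0.27 for PABPC1, -0.17 ± 0.19 for EEF2, -0.12 ± 0.31 for EEF1G and 0.15 ± 0.23 for EIF1 (edgeR adjusted p of at least 0.8099). The signs of EEF1G, EEF2, EIF1 and PABPC1 turned under at least 1 alternative each.

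In the direct comparison of STAU1 IP with GFP IP, 1 of the 5 members was called, TPT1, which was lower at a log2 of -1.01 ± 0.20 (edgeR adjusted p = 0.007341). Of all sites 0.865% were called lower and 2.18% higher, and of abundant sites 10.3% were called lower. Only 2.66% of abundant sites had a lower value than TPT1. The call was lost without GFP IP replicate 2 (log2 -0.68, edgeR adjusted p = 0.4329) and without STAU1 IP replicate 2 (-0.90, 0.07725). The other 4 values were -0.35 ± 0.13 for EEF2, -0.31 ± 0.16 for EIF1, -0.27 ± 0.19 for PABPC1 and 0.17 ± 0.22 for EEF1G. This comparison, the double ratio and the changes over input share libraries, so their calls are not separate evidence.

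Between STAU1 input and GFP input none of the 5 members was called by edgeR or DESeq2. Over all sites 0.00889% were called higher and 0% lower. At an unadjusted p under 0.05 there was 1 member, EIF1, at -0.45 ± 0.16 on the log2 scale (edgeR unadjusted p = 0.01077, adjusted p = 1). Here too the share of all sites at that unadjusted level is not given. The remaining log2 differences were -0.18 ± 0.13 for EEF2, -0.18 ± 0.20 for TPT1, -0.03 ± 0.19 for PABPC1 and 0.28 ± 0.21 for EEF1G.

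**Figure D2:**
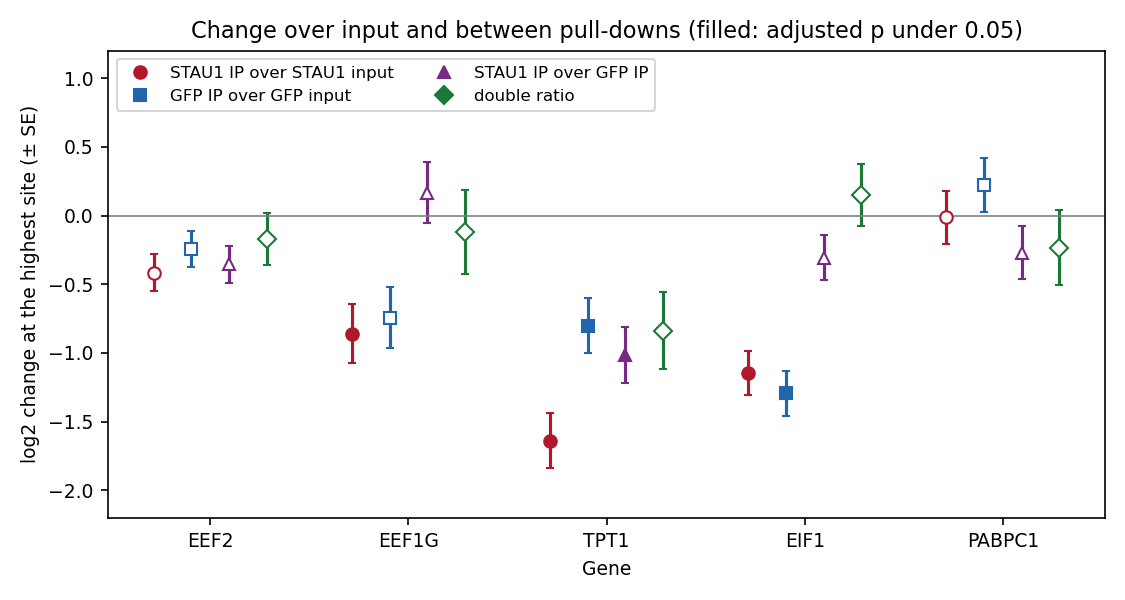
log2 change at the highest site of 5 translation factor mRNAs, with its SE, for each pull-down over its own input, for STAU1 IP over GFP IP and for the double ratio; filled symbols passed an edgeR adjusted p under 0.05. TPT1 is filled in all but the double ratio, EIF1 in both changes over input, EEF1G in the STAU1 one alone, and EEF2 and PABPC1 in none.

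The 3 nuclear sites outside the windows whose profile was most like the mean of the members, among 497 abundant sites, lay on the minus strand of chromosome X at 71492463, on the minus strand of chromosome 14 at 24686065 and on the plus strand of chromosome 17 at 37360973 (hg19). Pearson's r of log2 CPM was 0.990 to 0.997 over the 8 libraries, which share the split into pull-downs and inputs. Their log2 changes were -0.91, -1.18 and -1.14 in STAU1 IP over input and -0.68, -0.68 and -0.81 in GFP IP over input. The sites were picked by their profile over these same libraries, so lower values in both pull-downs follow from the choice and are no separate result.

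Members also differed in how many 3′ ends carried their reads. In the pull-down table the highest site held 99.98% of the reads in the EEF2 window, 99.9% in the PABPC1 window and 99.2% in the EEF1G window. It held 94.1% in the EIF1 window and 73.4% in the TPT1 window. In TPT1 a second, proximal end lay 306 nt upstream of the highest one, at 45911313. In EIF1 a second, distal end lay 643 nt downstream of the highest one, at 39847893. The highest site is thus the distal end in TPT1 and the proximal end in EIF1.

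Both ends of TPT1 fell in both pull-downs. The proximal end had 23.3 and 24.1 CPM in STAU1 IP, against 146.5 and 174.3 CPM in STAU1 input. It had 33.9 and 53.9 CPM in GFP IP, against 204.7 and 174.0 CPM in GFP input. Its log2 change was -2.76 ± 0.25 in STAU1 IP (edgeR adjusted p = 2.516e-06) and -2.11 ± 0.26 in GFP IP (edgeR adjusted p = 4.072e-05), beside -1.64 and -0.80 at the distal end. Its double ratio was -0.65 ± 0.35 (edgeR adjusted p = 0.5187).

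As a share of both TPT1 ends, the distal end took 87.6% and 86.3% in STAU1 IP, against 75.5% and 75.4% in STAU1 input. It took 88.8% and 87.3% in GFP IP, against 71.4% and 77.6% in GFP input. All 4 pull-down libraries lay above all 4 inputs, at 87.5 ± 1.02% in pull-downs and 75.0 ± 2.61% in inputs (SD, n = 4 each). The log2 ratio of distal to proximal reads was higher by 1.22 in pull-downs, with p = 0.0286 by an exact two-sided permutation test, the smallest that 4 against 4 can give, and 0.0571 after adjustment over the 2 genes tested. This test was chosen after the shares were seen to separate, so it could only return its smallest p-value and adds no evidence to the shares. It also pooled STAU1 and GFP libraries, without keeping each pull-down with its own input. By group the pull-down shares were 86.9 ± 0.91% in STAU1 IP and 88.0 ± 1.05% in GFP IP (SD, n = 2 each).

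For EIF1 the shares of pull-downs and inputs overlapped. Its distal end took 4.66% and 7.71% in STAU1 IP, against 7.15% and 6.64% in STAU1 input, and 4.92% and 5.80% in GFP IP, against 5.21% and 4.80% in GFP input. The means were 5.77 ± 1.38% in pull-downs and 5.95 ± 1.12% in inputs (SD, n = 4 each, exact two-sided permutation p = 0.829). The distal end had 19.9 and 34.6 CPM in STAU1 IP, against 68.0 and 66.5 CPM in STAU1 input. It had 26.3 and 31.3 CPM in GFP IP, against 66.6 and 64.3 CPM in GFP input. Its log2 change was -1.30 ± 0.29 in STAU1 IP (edgeR adjusted p = 0.009833) and -1.18 ± 0.31 in GFP IP (edgeR adjusted p = 0.02705), so that both EIF1 ends fell in both pull-downs.

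Summed over all sites of a window, TPT1 changed by -1.84 ± 0.20 in STAU1 IP (edgeR adjusted p = 1.025e-05) and by -1.08 ± 0.19 in GFP IP (edgeR adjusted p = 0.001651). EIF1 changed by -1.16 ± 0.16 and -1.29 ± 0.16. The calls by member were the same as at the highest sites in all 5 comparisons. In that fit 2.98% of sites were called lower in STAU1 IP over input, 3.99% in GFP IP over input and 0.866% in STAU1 IP over GFP IP.

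The fractions asked how much of each mRNA was found in polysomes, RNA carried by several ribosomes, relative to cytoplasm, with and without STAU1. With 1 library per group there is no test. Values are given with 95% intervals for counting error alone. In the pull-down table replicates differed by more than counting error. The chi-square per degree of freedom of their counts ran from 3.41 in GFP IP to 15.4 in STAU1 input. The intervals of the fractions are thus likely too narrow. Whether PCR copies were removed is not given here, so reads cannot be taken as independent molecules. A ratio was called past 1.5-fold, and the background is the 4766 sites with at least 50 reads in each of the 4 libraries. Mitochondrial sites took 4.41% of the reads in KO polysomes and 13.9% in KO cytoplasm, and 5.26% in WT polysomes and 18.3% in WT cytoplasm. Leaving them out before scaling did not alter the number of members past 1.5-fold in any of the 5 ratios.

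PABPC1 had the lowest ratio of polysomal to cytoplasmic level among the members in both genotypes. It had 46.8 CPM in KO polysomes and 119 CPM in KO cytoplasm, and 56.3 CPM in WT polysomes and 174 CPM in WT cytoplasm. The log2 ratio of polysomal to cytoplasmic level was -1.34 (-1.61 to -1.08) in KO and -1.63 (-1.89 to -1.37) in WT, and only 2.52% of sites in KO and 1.74% in WT were lower. These ratios rest on 169 to 454 reads.

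TPT1 was next. Its distal end had 209 CPM in KO polysomes and 379 CPM in KO cytoplasm, and 247 CPM in WT polysomes and 534 CPM in WT cytoplasm. The log2 ratio was -0.86 (-0.99 to -0.73) in KO and -1.11 (-1.24 to -0.98) in WT. The proximal end gave -1.02 (-1.15 to -0.89) in KO and -0.89 (-1.03 to -0.75) in WT, so that the ends lay in opposite order in KO and WT. Both ends were past 1.5-fold lower in both genotypes.

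The 2 elongation factors lay near the limit. EEF2 had 6755 CPM in KO polysomes and 10462 CPM in KO cytoplasm, and 6075 CPM in WT polysomes and 8792 CPM in WT cytoplasm. Its log2 ratio was -0.63 (-0.65 to -0.61) in KO, past the 1.5-fold limit, and -0.53 (-0.56 to -0.51) in WT, short of it. EEF1G had 58.9 CPM in KO polysomes and 93.5 CPM in KO cytoplasm, and 55.6 CPM in WT polysomes and 71.0 CPM in WT cytoplasm. Its log2 ratio was -0.67 (-0.93 to -0.41) in KO and -0.35 (-0.66 to -0.04) in WT.

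EIF1 was the member with the highest ratio of polysomal to cytoplasmic level in both genotypes. Its highest, proximal end had 587 CPM in KO polysomes and 516 CPM in KO cytoplasm, and 491 CPM in WT polysomes and 341 CPM in WT cytoplasm. The log2 ratio was 0.19 (0.09 to 0.28) in KO and 0.53 (0.41 to 0.65) in WT, both short of 1.5-fold. NPM1 had 43.2 CPM in KO polysomes and 47.1 CPM in KO cytoplasm, and 57.9 CPM in WT polysomes and 48.3 CPM in WT cytoplasm. Its log2 ratio was -0.12 (-0.46 to 0.21) in KO and 0.26 (-0.08 to 0.60) in WT, both intervals including 0. With library totals the KO value turned to 0.09 and the WT value was 0.52 (0.18 to 0.86).

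**Figure D3:**
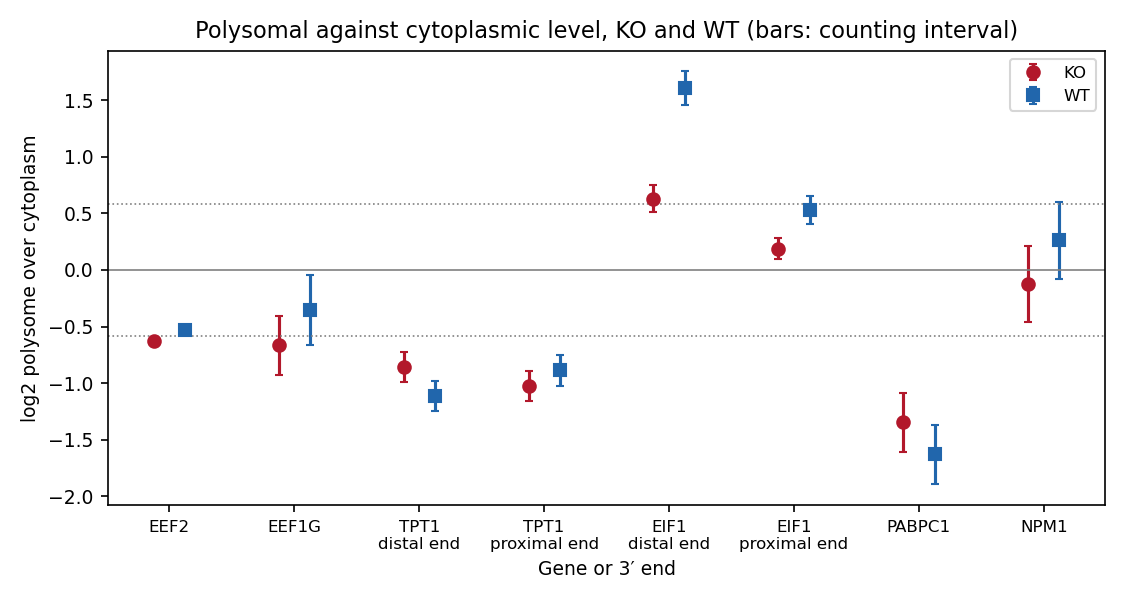
log2 ratio of polysomal to cytoplasmic level for 6 translation factor mRNAs, with both 3′ ends of TPT1 and of EIF1, in KO and WT (1 library per point's numerator and denominator); bars are 95% counting intervals and dotted lines mark 1.5-fold. PABPC1 and TPT1 lie below the lower dotted line in both genotypes, and the distal end of EIF1 lies above the upper one, at 0.63 in KO and 1.60 in WT.

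At their highest sites 4 of the 6 members were past 1.5-fold lower in KO polysomes over cytoplasm (EEF2, EEF1G, TPT1 and PABPC1), against 13.1% of all sites. In WT 2 of the 6 were past it (TPT1 and PABPC1), against 15.8% of all sites. None was past 1.5-fold higher, against 9.71% of all sites in KO and 12.5% in WT. The members' median log2 ratio was -0.65 in KO and -0.44 in WT, against -0.01 and -0.02 over all sites. The 4 in KO became 2 with scaling by library totals, which moved every KO ratio by 0.21 and every WT ratio by 0.26.

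The ends of EIF1 differed within the fractions. The distal end had 448 CPM in KO polysomes and 290 CPM in KO cytoplasm, and 563 CPM in WT polysomes and 185 CPM in WT cytoplasm. Its log2 ratio was 0.63 (0.51 to 0.75) in KO and 1.60 (1.46 to 1.75) in WT. In WT, 99.96% of the 4766 sites had a lower ratio, and in KO 91.6%. The distal end took 43.3% of the reads of both ends in KO polysomes and 36.0% in KO cytoplasm, and 53.4% in WT polysomes and 35.2% in WT cytoplasm. The log2 ratio of distal to proximal reads was higher in polysomes than in cytoplasm by 0.44 (0.29 to 0.59) in KO and by 1.08 (0.89 to 1.27) in WT. In KO over WT it was -0.59 (-0.72 to -0.45) in polysomes and 0.05 (-0.15 to 0.25) in cytoplasm. Whether the genotypes differ beyond the spread between cultures could not be tested with 1 library each.

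In TPT1 the distal end took 51.2% in KO polysomes and 48.4% in KO cytoplasm, and 51.7% in WT polysomes and 55.6% in WT cytoplasm. The log2 ratio of distal to proximal reads in polysomes minus that in cytoplasm was 0.16 (-0.02 to 0.35) in KO and -0.23 (-0.41 to -0.04) in WT. The use of the ends also differed between the tables: the EIF1 distal end took 35.2% to 53.4% in the fraction libraries and 4.66% to 7.71% in the pull-down table, and the TPT1 distal end 48.4% to 55.6% and 71.4% to 88.8%. The tables come from separate sets of libraries, so a difference between total lysate and cytoplasm cannot be told apart from one between the sets.

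**Figure D4:**
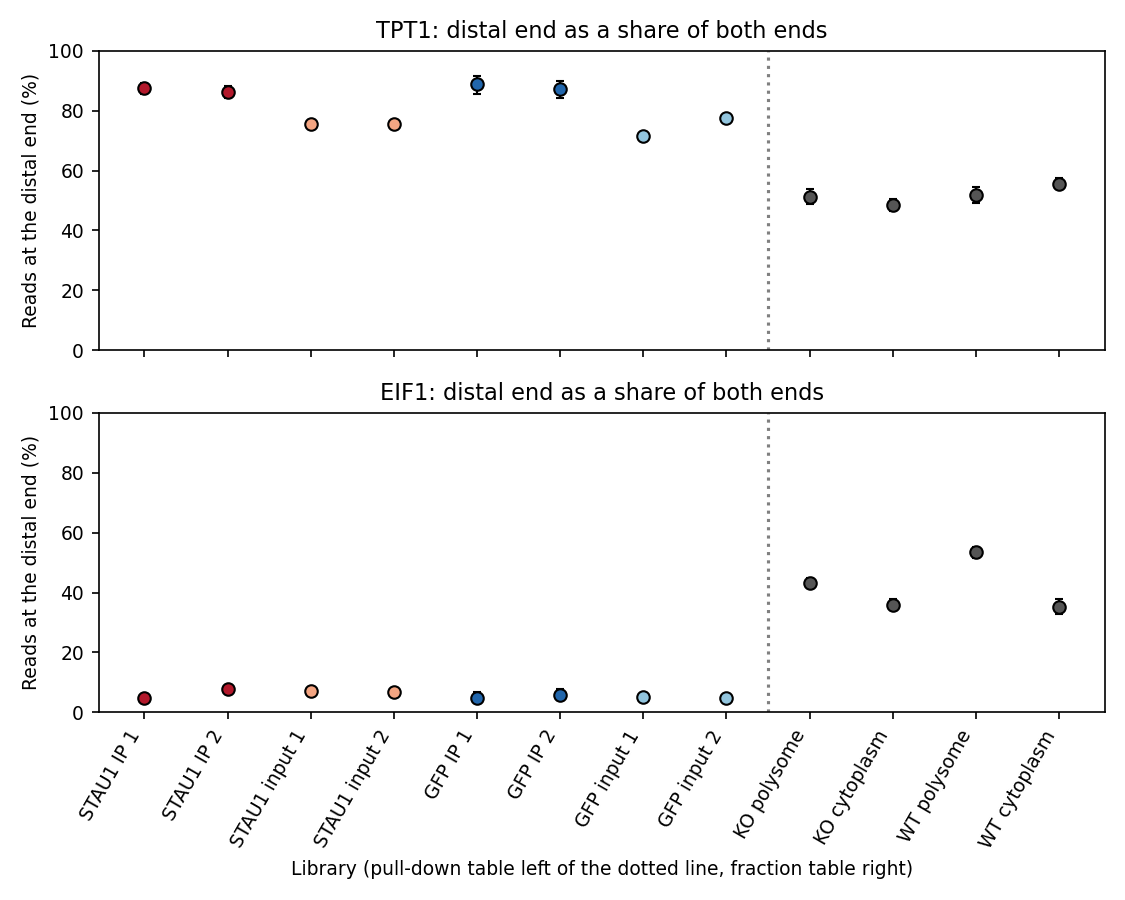
Reads at the distal 3′ end as a percentage of the reads at both ends of TPT1 (upper) and EIF1 (lower), 1 point per library with its exact binomial 95% interval; the dotted line separates the pull-down table from the fraction table. For TPT1 the 4 pull-down libraries lie at 86.3% to 88.8%, above the 4 inputs at 71.4% to 77.6%; for EIF1 they overlap, and WT polysomes are highest at 53.4%.

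Between KO and WT cytoplasm 1 of the 6 members was past 1.5-fold, EIF1, with a log2 ratio of 0.60 (0.48 to 0.72), against 9.63% of all sites past 1.5-fold higher and 9.86% lower. The others were 0.40 (0.13 to 0.67) for EEF1G, 0.25 (0.23 to 0.28) for EEF2, -0.04 (-0.39 to 0.32) for NPM1, -0.50 (-0.61 to -0.38) for TPT1 and -0.55 (-0.75 to -0.35) for PABPC1. All of these are values of the highest sites. For TPT1 that is the distal end alone. Its proximal end gave -0.07 (-0.19 to 0.04) and its sum over the window -0.28 (-0.36 to -0.20). Between KO and WT polysomes none of the 6 was past 1.5-fold, against 6.78% of all sites higher and 6.95% lower. The values at the highest sites ran there from -0.42 (-0.74 to -0.11) for NPM1 to 0.26 (0.16 to 0.35) for EIF1. The distal end of EIF1 went the other way, at -0.33 (-0.43 to -0.23). Its sum over the window was -0.03 (-0.09 to 0.04), an interval that includes 0.

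The polysome to cytoplasm ratio in KO minus that in WT was within 1.5-fold for all 6 highest sites, where 6.44% of all sites were past it upwards and 5.94% downwards. It was -0.39 (-0.85 to 0.08) for NPM1, -0.34 (-0.49 to -0.19) for EIF1, -0.32 (-0.71 to 0.08) for EEF1G, -0.10 (-0.13 to -0.06) for EEF2, 0.25 (0.07 to 0.44) for TPT1 and 0.29 (-0.08 to 0.65) for PABPC1. The median was -0.21, against 0.01 over all sites. At the distal end of EIF1 it was -0.98 (-1.16 to -0.79), and only 0.986% of sites were lower. Summed over the window, EIF1 gave 0.36 (0.29 to 0.43) in KO and 1.00 (0.91 to 1.09) in WT, a difference of -0.64 (-0.76 to -0.52) past 1.5-fold. For TPT1 the difference was -0.14 (-0.32 to 0.05) at the proximal end and 0.06 (-0.07 to 0.18) summed over the window. The 0.25 at its distal end thus does not hold for the gene as a whole. The NPM1 sum gave -0.45 (-0.89 to -0.005), within 1.5-fold.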

How the data were processed

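The members and lists were chosen with earlier results of these data known. Per the submitters' processing notes, the aligner was STAR and the build hg19; its version, the clustering of sites and read filters are not given in the sources used here. What the authors deposited are raw counts of reads at each poly(A) site, 1 column per library, in separate tables for the pull-downs and the fractions. The test was edgeR's (version 4.0.16, R 4.3.3; quasi-likelihood, 4 groups and 8 libraries in a common fit, TMM scaling, filterByExpr, Benjamini-Hochberg adjustment over 33744 sites, threshold 0.05). Sums replaced the sites of a window by 1 row. DESeq2 1.42.0 was an alternative. CPM values are TMM-scaled. For the fractions, log2 ratios of TMM-scaled counts have exact conditional binomial intervals, and differences of ratios have normal-approximation ones. Scripts were tested on simulated data. Named were all members with at least 50 reads in every library, further window sites whose average log2 CPM reached 4, and the 3 most similar sites. A wider list of translation factors could not be matched to sites, which carry no gene names, and is not analysed here.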

Additional observations from a re-analysis of the deposited data

Results flagged for a closer look

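NPM1 was singled out because its polysome to cytoplasm ratio had opposite signs in the genotypes. At the highest site the log2 ratio was -0.12 in KO and 0.26 in WT, and summed over the window it was -0.19 in KO and 0.25 in WT. Each value rests on 1 library per fraction with 126 to 174 reads at the highest site, and the counting intervals at that site include 0 in both genotypes. KO minus WT was -0.39 (-0.85 to 0.08) at the highest site. Summed over the window it was -0.45 (-0.89 to -0.005), an interval that narrowly excludes 0. With scaling by library totals the KO values were 0.09 at the highest site and 0.02 as a sum, so that the opposite signs were not kept. The WT values were then 0.52 (0.18 to 0.86) and 0.51 (0.18 to 0.84). The difference between the genotypes was not tested.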

How the results depend on the processing

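At the highest sites and for the sums of TPT1 and EIF1, 471 values of the pull-down alternatives kept their direction and side of the threshold, 27 newly passed it, 12 no longer passed it and 28 turned sign; of the fraction values 223 stayed within the main counting interval and 17 left it. The fraction values also take in the sums of NPM1, whose highest site held 91.4% of the window's reads in the fraction table. Sums of members with at least 95% of the window's reads at the highest site are not among these values, though they enter the counts of members below. The cause of these changes was not tested unless stated. TMM and library totals differed by a log2 shift of 0.31 in GFP IP over input, 0.14 in STAU1 IP over input, -0.17 in the double ratio, 0.21 in KO polysome over cytoplasm and 0.26 in WT; RLE factors shifted GFP IP over input by 0.16 and the double ratio by -0.13. None of the values that turned sign was called. With library totals they were EEF2 in GFP IP over input (0.066), PABPC1 in STAU1 IP over input (0.13) and between inputs (0.058), and EIF1 in the double ratio (-0.024, sum -0.043). With RLE factors they were PABPC1 (0.014 and 0.029) and the EIF1 sum (-0.0019), with DESeq2 the same values (0.014, 0.029 and -0.0018). Without the filter they were PABPC1 in GFP IP over input (-0.22) and the double ratios of EEF1G (0.11) and EEF2 (0.049), and with only the compared libraries PABPC1 between inputs (0.0035). A window of 500 nt leaves out the highest EIF1 site and gave EIF1 sums of 0.038 between inputs and -0.11 in the double ratio. Leaving out 1 library at a time, where a lone sample is assumed to vary like the other groups, gave PABPC1 -0.15 to 0.34 in GFP IP over input, -0.18 to 0.057 in STAU1 IP over input, -0.19 to 0.13 between inputs and -0.37 to 0.047 in the double ratio, where EEF1G ranged from -0.26 to 0.14 and EEF2 from -0.24 to 0.049.

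Members called lower in GFP IP over input (2 at the highest site and as sums) numbered 1 with library totals, 1 with only the compared libraries, 4 without the filter (sums 4), and 1 to 4 with 1 library left out (sums 1 to 4). In STAU1 IP over GFP IP (1) they numbered 2 with RLE factors, 2 with library totals, 3 with DESeq2, 2 with only the compared libraries, and 0 to 1 with 1 library left out, as did the sums. In the double ratio (0) DESeq2 called 1, at the highest site and as sums. Members past 1.5-fold lower in KO polysomes over cytoplasm (4) were 2 with library totals, at the highest site and as sums. One member was past 1.5-fold higher in WT with library totals, and 1 sum in KO with a window of 500 nt.

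Over all sites, calls in STAU1 IP over input (2040) were 1172 without the filter, 1278 with only the compared libraries and 1215 to 3767 with 1 library left out. Calls in GFP IP over input (2059) were 1178 to 3123 with 1 left out. Calls in STAU1 IP over GFP IP (1028) were 1742 with DESeq2 and 518 to 1866 with 1 left out. Calls in the double ratio (232) were 741 with DESeq2, 355 without the filter and 236 to 1843 with 1 left out. Calls between inputs (3) were 10 with DESeq2, 11 without the filter, 0 with only the compared libraries and 5 to 605 with 1 left out. These pull-down counts rest on unlike numbers of tested sites. They were 33744 in the main fit, 640413 without the filter and 46415 to 51904 with 1 library left out. With only the compared libraries they were 19973 to 27540, and with DESeq2 7575 to 31781. The counts are thus not calls among the same sites. With at least 20 reads per library, which admits more sites, those past 1.5-fold were 2217 in KO and 2619 in WT polysome over cytoplasm, 1962 in KO over WT cytoplasm, 1508 in KO over WT polysomes and 1605 for the difference, against 1086, 1346, 929, 654 and 590. The share of calls that were higher moved in GFP IP over input to 46.8% with RLE factors and 61.7% with library totals, against 34.5%; in STAU1 IP over input to 63.0% with library totals, against 50.6%; in the double ratio to 61.6% with RLE factors and 57.8% with library totals, against 77.2%; and in STAU1 IP over GFP IP to 61.3% with library totals, against 71.6%.

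The replicate numbers were not used as pairs. Differences between replicates correlated at -0.20 to 0.09 between groups, and the labels name no shared batch. With the replicate block the calls numbered 512 in the double ratio and 6 between inputs, and of the members EEF2 in STAU1 IP over input (log2 -0.41, edgeR adjusted p = 0.04679) and EEF1G in GFP IP over input (-0.74, 0.03924) passed the threshold. The GFP IP libraries, with 1291888 and 1245270 reads, limit the precision of every value that rests on them.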
